A study of Nematostella vectensis with 4 samples.

Results

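Gene expression in the tentacle was set against that in the pharynx of the starlet sea anemone Nematostella vectensis, using UMI sums of single cells. Of the 4 tissue libraries of the study, 1 came from tentacles and 1 from the pharynx, both dissected from sub-adult polyps aged 5 months. All animals had the same treatment, and the labels name no strain, allele or agent and do not say how many polyps were pooled. Tissue pieces were broken down with a trypsin-like enzyme and the cells were captured in droplets with 10x Genomics version 2 reagents, in which each transcript carries a molecular tag (UMI). Barcodes with at least 300 UMIs were taken as cells, which gave 1299 tentacle and 2804 pharynx cells. With 1 library a side no difference has a replicate check, no test was run, and every interval (95%) covers counting error only. Gene models named after toxins, 57 in all, were left out.

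The tentacles of a sea anemone catch prey. Their surface is crowded with stinging cells, each of which builds a capsule from minicollagens and other secreted proteins and discharges it on contact. The pharynx is a folded, ciliated tube of ectoderm that leads from the mouth into the gut cavity, and it holds gland cells that secrete digestive enzymes. Muscle and nerve cells run through both. Most models in the deposited gene table carry the name of a protein from some other species, written as a protein code and a species code, so a role given here is that of the protein the model is named after.

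The tentacle library held 2637057 UMIs over 7000 barcodes and the pharynx library 3499510 UMIs over 7000. Cells carried 69.9% of the tentacle UMIs (1843444) and 78.7% of the pharynx UMIs (2755343). A tentacle cell had a median of 703 UMIs and a pharynx cell 563. A count of 3 UMIs, the floor used where a library had 0, equalled 1.63 counts per 1000000 UMIs of the library (CPM) in the tentacle and 1.09 CPM in the pharynx. Only 1 barcode sequence was kept in both libraries. A sum over a library cannot tell more cells of a type from more RNA per cell.

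Of 25734 gene models, 4357 had at least 50 UMIs in either library and were compared. In the tentacle, 476 of them (10.9%) had at least 50 UMIs and at least 4 times the CPM of the pharynx, and are called tentacle-high. The opposite, pharynx-high, held for 570 (13.1%). Between these, 2241 genes (51.4%) lay within a ratio of 2, and the median log2 ratio of tentacle to pharynx (10 CPM added to each) was -0.05. The tentacle-high genes took 18.9% of tentacle and 1.79% of pharynx UMIs, whereas the pharynx-high genes took 0.699% of tentacle and 8.75% of pharynx UMIs. Fewer genes were thus called in the tentacle, and they took a larger share of their own library. Among the pharynx-high genes, 140 had 0 UMIs in the tentacle, and among the tentacle-high genes 39 had 0 UMIs in the pharynx. Tentacle cells held fewer UMIs in all (1843444 against 2755343). A minimum of 50 UMIs is thus a higher CPM in the tentacle, and a count of 0 is likelier there. Giving every cell equal weight changed the balance of calls to 608 tentacle-high and 474 pharynx-high genes, and scaling by the median gene ratio changed it to 407 tentacle-high and 648 pharynx-high.

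The stinging capsule list was 6-fold higher in the tentacle, where it took 1.04% of UMIs, against 0.173% in the pharynx. Of its 3 compared members 1 was tentacle-high and none pharynx-high, against 10.9% and 13.1% over all genes. That member, Ncol3, held most of the list's UMIs, and without it the ratio of the list was 3.04; without the 1% of barcodes with the most UMIs it was 9.7, and with equal weight for every cell 9.31. Ncol3 (NVE9976), a minicollagen of the capsule wall, had 17982 UMIs or 9755 CPM in the tentacle and 4205 UMIs or 1526 CPM in the pharynx, a ratio of 6.39 (6.18 to 6.61). DKK3_MOUSE (NVE142), named after a Dickkopf-related secreted protein, stood at 523 CPM in the tentacle and 170 CPM in the pharynx, a ratio of 3.07 (2.75 to 3.44) that is under the threshold. Ncol3 was present in both tissues and concentrated in few clusters of cells. With the cells of both libraries clustered together into 24 clusters, Ncol3 reached 32096, 18814 and 17076 CPM in tentacle cells of clusters 13, 12 and 18, and 13679 CPM in pharynx cells of cluster 10. Cluster 12 held 110 tentacle and 0 pharynx cells, cluster 13 held 97 tentacle and 0 pharynx cells, cluster 18 held 57 tentacle and 3 pharynx cells, and cluster 10 held 14 tentacle and 109 pharynx cells. None of these clusters had enough of the chosen markers among its leading genes to be given a cell type name.

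Some transcripts were all but absent from the pharynx library. T194A_PONAB (NVE18972), named after a transmembrane protein of the nuclear envelope, had 11028 UMIs in the tentacle and 4 in the pharynx, a ratio of 4121 (1609 to 15127), the widest among genes with a name. XYLT_DROME (NVE15705), named after the xylosyltransferase that starts glycosaminoglycan chains, had 1518 UMIs in the tentacle and 0 in the pharynx, so it was at least 756-fold higher. RGRF1_RAT (NVE21656), named after an intracellular exchange factor for small GTPases, had 735 UMIs in the tentacle and 5 in the pharynx. PGCB_HUMAN (NVE17236), named after brevican, a proteoglycan core protein, had 865 UMIs in the tentacle and 0 in the pharynx (at least 431-fold higher), and PGCB_BOVIN (NVE2179) had 1362 in the tentacle and 15 in the pharynx (136-fold, 82 to 243). MATN4_MOUSE (NVE253), named after matrilin, a matrix adaptor, had 870 UMIs in the tentacle and 2 in the pharynx, a ratio of 650 with the wide interval of 179 to 5377. Most UMIs of XYLT_DROME, PGCB_HUMAN and T194A_PONAB lay in tentacle cells of cluster 12 (83.7%, 89.8% and 69.6%). Of the unnamed models, NVE18957 had 16274 UMIs in the tentacle and 0 in the pharynx (at least 8108-fold higher), and NVE18958 had 28090 in the tentacle and 80 in the pharynx (525-fold, 422 to 662).

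A further list joined calcium-binding and protein-folding factors of the secretory pathway with calmodulins. Of its 26 compared genes, 8 were tentacle-high and 1 was pharynx-high, against 10.9% and 13.1% over all genes. The pharynx-high member was a calmodulin model, CALM_PAXIN (NVE8328), with 1 UMI in the tentacle and 60 in the pharynx. The list took 0.718% of tentacle and 0.268% of pharynx UMIs, with a median log2 ratio of 0.72. CALU_HUMAN (NVE221) and RCN1_HUMAN (NVE4164), named after calumenin and reticulocalbin, which bind calcium in the endoplasmic reticulum, had 1137 and 1046 UMIs in the tentacle, against 0 and 0 in the pharynx. Both peaked in cluster 13, which held 70.6% and 66.4% of their tentacle UMIs. The disulfide isomerase PDIA4_HUMAN (NVE15733), a folding enzyme, stood at 1945 CPM in the tentacle and 176 CPM in the pharynx (11.1-fold, 10.1 to 12.2). In the pharynx, 10 cells held 98.6% of its UMIs. Calreticulin (CALR_MOUSE, NVE25258) was not called, at 623 CPM in the tentacle and 465 CPM in the pharynx.

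Lectins and mucin-like proteins, which coat and stick to surfaces, took 0.798% of tentacle and 0.21% of pharynx UMIs. Of the 12 compared members 7 were tentacle-high and 2 pharynx-high, against 10.9% and 13.1% over all genes, and the median log2 ratio was 1.64. The share ratio of 3.81 became 1.99 without CSL3_ONCKE, the member with the most UMIs. The rhamnose-binding lectin CSL3_ONCKE (NVE7724) stood at 4966 CPM in the tentacle and 577 CPM in the pharynx (8.6-fold, 8.15 to 9.08). In both libraries its UMIs came mostly from cluster 4, where it reached 35632 CPM in tentacle cells and 20229 CPM in pharynx cells. A second salmon lectin, CSL1_ONCKE (NVE3843), was at 1541 CPM in the tentacle and 320 CPM in the pharynx. The lectin LEG_HELCR (NVE19041) was at 338 CPM in the tentacle and 38.8 CPM in the pharynx. Models named GP2_CANFA, after a zona pellucida domain glycoprotein, were found on both sides. NVE20813 had 762 UMIs in the tentacle and 79 in the pharynx, whereas NVE8266 had 17 in the tentacle and 245 in the pharynx.

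Among the most abundant tentacle-high genes, LPHN_DROPE (NVE3844) and EVA1C_PANTR (NVE3845), named after an adhesion receptor and a membrane protein that both carry a rhamnose-binding lectin domain, had 8960 and 9321 UMIs in the tentacle, against 1442 and 2053 in the pharynx. DCBD2_MOUSE (NVE20437), named after a membrane protein with discoidin and CUB domains, stood at 3233 CPM in the tentacle and 499 CPM in the pharynx. Like CSL1_ONCKE, these genes had their tentacle peak in cluster 12 and their pharynx peak in cluster 10, and CSL1_ONCKE, LPHN_DROPE and EVA1C_PANTR carry consecutive model numbers. ADF2_ORYSJ (NVE10746), named after an actin-depolymerizing factor, differed in this. It stood at 1215 CPM in the tentacle and 119 CPM in the pharynx (10.2-fold, 9.09 to 11.5), and 86.8% of its tentacle UMIs lay in cluster 3.

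Innate immunity genes leaned to the tentacle in the libraries' totals, with 0.118% of tentacle and 0.0569% of pharynx UMIs. Of 16 compared members 6 were tentacle-high and 3 pharynx-high, against 10.9% and 13.1% over all genes. OAS1_HUMAN (NVE18470), named after an antiviral oligoadenylate synthase, had 447 UMIs in the tentacle and 29 in the pharynx (23-fold, 15.8 to 34.8). CO6_BOVIN (NVE1601), named after a complement component, had 325 UMIs in the tentacle and 14 in the pharynx, with 97.8% of its tentacle UMIs in cluster 18. CO3_LAMJA (NVE18540), another complement name, went the other way with 25 UMIs in the tentacle and 165 in the pharynx. Its ratio of 0.226 (0.142 to 0.346) became 0.392 when barcodes with at least 200 UMIs were counted and 0.708 over all deposited barcodes, so it was not called in either.

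On the pharynx side, 11 of 19 compared proteases and digestive enzymes were pharynx-high and 2 were tentacle-high, against 13.1% and 10.9% over all genes. The list took 0.0694% of tentacle and 0.213% of pharynx UMIs. CTRB1_MOUSE (NVE9071), named after chymotrypsinogen, had 0 UMIs in the tentacle and 1103 in the pharynx, at least 246-fold lower in the tentacle. The hatching enzyme HE_HEMPU (NVE23939), an astacin-family metalloprotease, had 0 UMIs in the tentacle and 837 in the pharynx, while CPP1_ACRMI (NVE1213) had 0 in the tentacle and 1607 in the pharynx. These transcripts came from very few cells. In the pharynx, 10 cells held 99.7% of the CTRB1_MOUSE, 96.1% of the HE_HEMPU and 95.4% of the CPP1_ACRMI UMIs, and cluster 11 held nearly all of them. The elastase-named CEL3B_HUMAN (NVE8502) was tentacle-high, with 420 UMIs in the tentacle and 29 in the pharynx. The other tentacle-high member, MEP1B_HUMAN (NVE11294), named after the metalloprotease meprin, had 99 UMIs in the tentacle and 0 in the pharynx, of which 95 lay in a lone cell.

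The pharynx-high genes with the widest ratios ranged from ones spread over many cells to ones held by few. HMCN1_HUMAN (NVE10021), named after hemicentin, an extracellular matrix protein, had 0 UMIs in the tentacle and 3153 UMIs or 1144 CPM in the pharynx, at least 703-fold lower in the tentacle. In the pharynx, 10 cells held only 6.47% of its UMIs, and its level was 3034 CPM in cluster 0 and 2565 CPM in cluster 1. NvFoxA (NVE20630), a forkhead factor long used as a marker of the Nematostella pharynx, had 3 UMIs in the tentacle and 888 UMIs or 322 CPM in the pharynx, 198-fold lower in the tentacle (67.5 to 962). OIT3_HUMAN (NVE4770), named after a secreted protein with a zona pellucida domain, had 1 UMI in the tentacle and 536 in the pharynx (359-fold lower in the tentacle, 64.1 to 14190). The expansin-named YOAJ_BACSU (NVE2639) had 0 UMIs in the tentacle and 918 in the pharynx, of which 75.4% lay in 10 cells and 99.2% in cluster 10, the cluster of pharynx cells rich in Ncol3. Of the unnamed models, NVE11519 had 0 UMIs in the tentacle and 7379 in the pharynx (at least 1646-fold lower in the tentacle), with 79.7% in 10 cells.

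**Figure D1:**
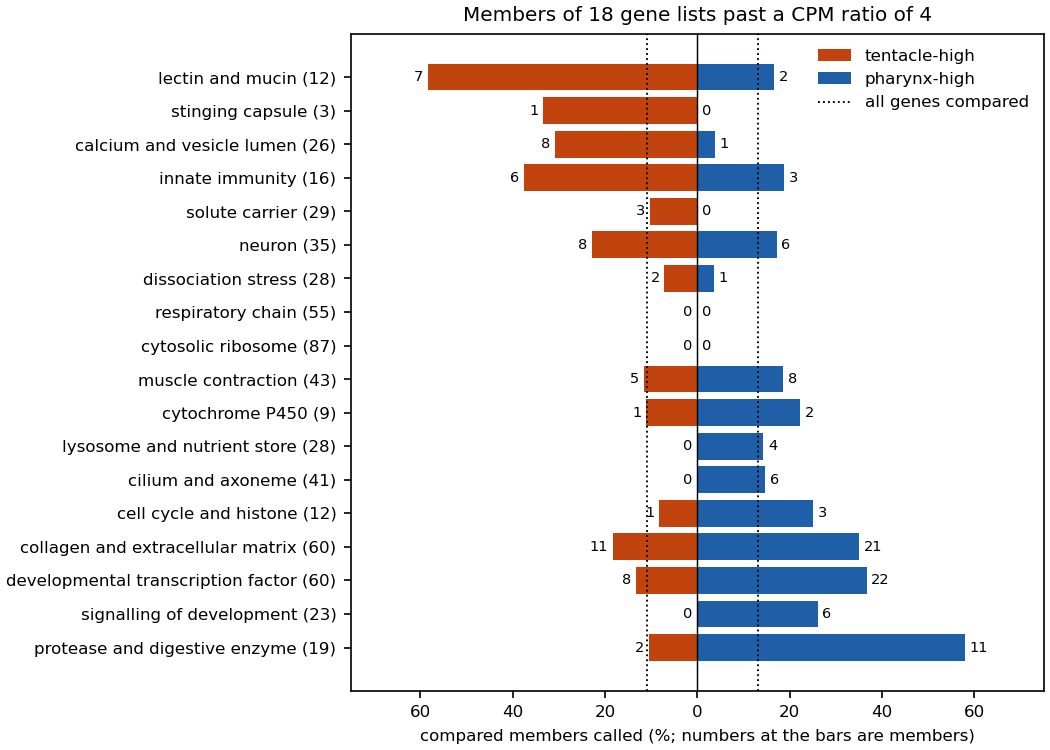
Share of the compared members of 18 gene lists that were tentacle-high (orange, to the left) or pharynx-high (blue, to the right), with the number of compared members after each list name and the number called at each bar. Dotted lines mark the share over all compared genes, 10.9% on the tentacle side and 13.1% on the pharynx side; lectins reach farthest on the tentacle side (7 of 12) and proteases on the pharynx side (11 of 19).

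Collagen and extracellular matrix genes divided between the tissues: of 60 compared, 11 were tentacle-high and 21 pharynx-high, against 10.9% and 13.1% over all genes. The list took 0.486% of tentacle and 0.594% of pharynx UMIs, a ratio of 0.819 that became 1.01 when every cell had equal weight, and its median log2 ratio was -0.82. COCA1_MOUSE (NVE1555), named after a fibril-associated collagen, had 0 UMIs in the tentacle and 1168 in the pharynx, with 95.1% in 10 cells. The fibulin FBLN1_DANRE (NVE4720) had 0 UMIs in the tentacle and 224 in the pharynx, only 17% of them in 10 cells. The fibrillar collagen CO1A2_CANFA (NVE12857) stood at 88.4 CPM in the tentacle and 372 CPM in the pharynx, a ratio of 0.237 (0.2 to 0.28). That ratio became 0.608 over all deposited barcodes and 0.506 with equal weight for every cell, so it is not called there. On the tentacle side, HMCN1_HUMAN (NVE26176) had 290 UMIs in the tentacle and 5 in the pharynx, with 99% of its tentacle UMIs in cluster 18. The thrombospondin TSP2_HUMAN (NVE25933), an adhesive matrix glycoprotein, was not called, at 1451 CPM in the tentacle and 1032 CPM in the pharynx (ratio 1.41, 1.33 to 1.48), and cluster 16 held 97.6% of its tentacle and 91.9% of its pharynx UMIs.

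Developmental transcription factors were pharynx-high in 22 of 60 compared genes and tentacle-high in 8, against 13.1% and 10.9% over all genes. Their median log2 ratio was -1.03. HoxB/Anthox6a (NVE11345), a homeobox gene, had 2 UMIs in the tentacle and 163 in the pharynx, 54.5-fold lower in the tentacle (14.9 to 454). HoxE/Anthox1a (NVE12998) had 1 UMI in the tentacle and 64 in the pharynx. NvTwist (NVE19719), a basic helix-loop-helix factor known from mesoderm formation in flies and vertebrates, had 1 UMI in the tentacle and 94 in the pharynx. In the pharynx, 90.4% of its UMIs lay in cluster 2. Among the 8 tentacle-high factors, the forkhead factor FoxL2 (NVE1324) had 583 UMIs in the tentacle and 18 in the pharynx (48.4-fold, 30.4 to 82.3). Its tentacle UMIs were spread over clusters, with 36% in cluster 13. FOXO_CAEEL (NVE17475), named after the worm forkhead factor of insulin signalling, had 70 UMIs in the tentacle and 1 in the pharynx, with 88.6% of tentacle UMIs in cluster 4. Nv-ZicC (NVE6690), a zinc finger factor, had 69 UMIs in the tentacle and 4 in the pharynx. The zinc finger gene fez-family (NVE2140) had 57 in the tentacle and 2 in the pharynx. Forkhead genes were thus called on both sides, NvFoxA in the pharynx and FoxL2 and FOXO_CAEEL in the tentacle.

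Genes of developmental signalling, a list of ligands, modulators, receptors and intracellular members, were pharynx-high in 6 of 23 compared genes and tentacle-high in none. The shares over all genes were 13.1% pharynx-high and 10.9% tentacle-high. NvWnt1 (NVE12960), a Wnt ligand, had 0 UMIs in the tentacle and 76 in the pharynx (at least 16.9-fold lower in the tentacle), of which 60.5% lay in cluster 4. Among fibroblast growth factors, FGF17_HUMAN (NVE25405) had 1 UMI in the tentacle and 68 in the pharynx, while NvFgf8/17-like (NVE19437) had 2 in the tentacle and 62 in the pharynx. FSTL1_BOVIN (NVE5898), named after a secreted follistatin-like protein, had 6 UMIs in the tentacle and 75 in the pharynx, a ratio of 0.12 (0.0425 to 0.273) that became 0.697, no longer called, over all deposited barcodes. Neither of the following receptors was called. FGFR1_RAT (NVE6310), a fibroblast growth factor receptor, stood at 78.1 CPM in the tentacle and 148 CPM in the pharynx (ratio 0.526, 0.432 to 0.638), and the type I receptor NvAlk2-like (NVE19107) at 41.2 CPM in the tentacle and 34.5 CPM in the pharynx (ratio 1.2, 0.873 to 1.63).

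In the list of cell cycle, histone and germline genes, 1 of 12 compared members was tentacle-high and 3 were pharynx-high, against 10.9% and 13.1% over all genes. Nvnos2/Nanos2 (NVE16405), an RNA-binding regulator of germ and stem cells, had 27 UMIs in the tentacle and 382 in the pharynx (9.47-fold lower in the tentacle, 6.4 to 14.6). The histone models H4_DENKL (NVE24050) and H2A_ACRFO (NVE24049) had 0 and 0 UMIs in the tentacle, against 110 and 56 in the pharynx. Near-identical histone copies can share reads, so these models are uncertain one by one. The histone variant H33_XENTR (NVE15668) stood at 1523 CPM in the tentacle and 1857 CPM in the pharynx.

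Muscle genes were called both ways. Of 43 compared, 5 were tentacle-high and 8 pharynx-high, shares not far above the 10.9% and 13.1% over all genes. The list took 1% of tentacle and 0.757% of pharynx UMIs, while its median log2 ratio was -0.17, so that the summed share and the median differed in sign. The median was 0.40 when every cell had equal weight. The myosin light chains MYL9_MOUSE (NVE20160) and MLC2_DROME (NVE3912) had levels of 2383 and 1110 CPM in the tentacle, and of 862 and 729 CPM in the pharynx. At least 87.5% of their UMIs in either library lay in cluster 8. The calponin-family proteins were split between models. CNN2_BOVIN (NVE7521) had 158 UMIs in the tentacle and 16 in the pharynx (14.8-fold, 8.81 to 26.5), whereas MP20_DROME (NVE7493) had 12 in the tentacle and 367 in the pharynx (20.5-fold lower in the tentacle, 11.6 to 40). The adjacent model numbers NVE3436 and NVE3437 share the name CSRP1_RAT, after a muscle LIM protein. NVE3436 had 70 UMIs in the tentacle and 8 in the pharynx, while NVE3437 had 17 in the tentacle and 442 in the pharynx.

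Actins were not in the muscle list, and 2 of them had the most UMIs among pharynx-high genes with a name. ACTC_BIOAL (NVE1939) stood at 1684 CPM in the tentacle and 14421 CPM in the pharynx (8.56-fold lower in the tentacle, 8.25 to 8.88), and ACTB_XENBO (NVE2870) at 199 CPM in the tentacle and 2619 CPM in the pharynx (13.2-fold lower in the tentacle, 11.9 to 14.7). Actin copies are similar in sequence, so reads can be divided between models by the counting. ACTC_BIOAL had UMIs across the pharynx clusters, including those where it was lowest. The unnamed NVE9787 showed the same spread, at 1021 CPM in the tentacle and 8393 CPM in the pharynx, and over all deposited barcodes its ratio of 0.122 became 0.259, which is not called.

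The share of cells with a UMI was taken after each cell had been thinned to 300 UMIs, beside the lowest share in any cluster of at least 50 cells of the same library, taken as the level that free RNA in the droplets can give. Ncol3 was detected in 27.1% of tentacle cells and 5.85% of pharynx cells, with lowest clusters at 5.21% (cluster 8, median 1205.5 UMIs) and 0% (cluster 4, median 1089 UMIs). Without thinning the shares were 36.3% of tentacle and 8.24% of pharynx cells. HMCN1_HUMAN (NVE10021) had no UMI in any of the 1299 tentacle cells, thinned or not, and a count of 0 allows, at the floor of 3 counts, a share of cells with a UMI of up to 0.231%. It was detected in 30.7% of pharynx cells (29 to 32.5%), against 1.92% in the lowest pharynx cluster (cluster 7, median 868.5 UMIs) and 43.6% of pharynx cells unthinned. NvFoxA was detected in 0.077% of tentacle and 10.4% of pharynx cells (unthinned, 0.154% of tentacle and 21.4% of pharynx cells), and the lowest clusters were at 0%. For the actin ACTC_BIOAL the shares were 37.6% in the tentacle and 90.8% in the pharynx (unthinned, 61.8% of tentacle and 96.1% of pharynx cells). Its lowest clusters already had 12.3% of tentacle cells (cluster 18, median 4090 UMIs) and 37.3% of pharynx cells (cluster 4). Whether these come from free RNA or from expression in those cells was not tested.

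**Figure D2:**
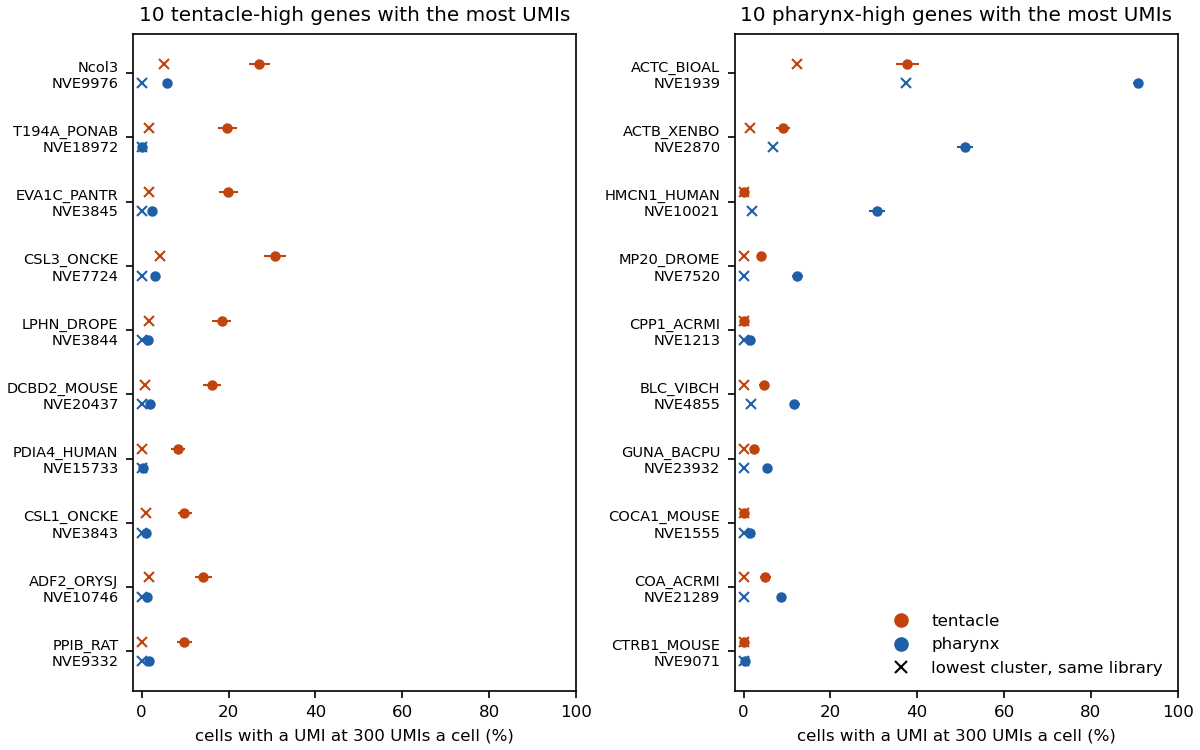
Share of cells with at least 1 UMI after thinning to 300 UMIs a cell (horizontal axis, percent) for the 10 named tentacle-high genes (left) and the 10 named pharynx-high genes (right) with the most UMIs, in the tentacle (orange) and the pharynx (blue). Bars are exact 95% intervals and crosses the lowest share among clusters of the same library; the 2 actins have raised crosses, whereas CTRB1_MOUSE and COCA1_MOUSE lie near 0 in both libraries although they were called from UMI sums.

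A few cells carried many of the calls. The 10 cells with the most UMIs of a gene held a median of 34.6% of its UMIs for tentacle-high and 24.6% for pharynx-high genes. They held over 50% for 118 tentacle-high genes (24.8%) and 146 pharynx-high genes (25.6%). When those 10 cells were removed from the higher library, 233 tentacle-high genes (48.9%) and 307 pharynx-high genes (53.9%) were still called.

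Cilium and axoneme genes took 0.0946% of tentacle and 0.215% of pharynx UMIs. Of 41 compared, none was tentacle-high and 6 were pharynx-high, a share of calls close to that over all genes, and the median log2 ratio was -0.86. RSPH1_MOUSE (NVE13866), named after a radial spoke head protein, had 0 UMIs in the tentacle and 259 in the pharynx (at least 57.8-fold lower in the tentacle). ODF3A_XENLA (NVE26201), named after an outer dense fibre protein, stood at 13.6 CPM in the tentacle and 92.2 CPM in the pharynx, and 73.6% of its pharynx UMIs lay in cluster 6. Its ratio of 0.147 became 0.255 over all deposited barcodes, just under the threshold.

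Neuronal genes were called both ways, 8 tentacle-high and 6 pharynx-high of 35 compared, with a median log2 ratio of 0.38. The shares over all genes were 10.9% tentacle-high and 13.1% pharynx-high. Transporters of the same family differed. The vesicular inhibitory amino acid transporter VIAAT_XENTR (NVE8024) stood at 374 CPM in the tentacle and 53.7 CPM in the pharynx (6.96-fold, 5.82 to 8.37), while VIAAT_XENLA (NVE17672) stood at 196 CPM in the tentacle and 192 CPM in the pharynx. The glutamate transporter VGLU1_XENLA (NVE20928) had 120 UMIs in the tentacle and 24 in the pharynx, while VGLU1_RAT (NVE9481) was at 137 CPM in the tentacle and 147 CPM in the pharynx. Both tentacle-high transporters peaked in cluster 12 of the tentacle and cluster 10 of the pharynx. The potassium channel KCNA7_HUMAN (NVE6699) had 56 UMIs in the tentacle and 2 in the pharynx. Receptors led the pharynx side: NK3R_HUMAN (NVE20500), named after a tachykinin receptor, had 1 UMI in the tentacle and 99 in the pharynx, while the GABA-B receptor GABR2_HUMAN (NVE24509) had 30 in the tentacle and 312 in the pharynx.

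Lysosomal and nutrient storage genes took 1.67% of tentacle and 3.54% of pharynx UMIs, with 4 of 28 compared genes pharynx-high, a share near that over all genes, and none tentacle-high. The ratio of these shares, 0.472, became 0.92 over all deposited barcodes and 0.819 with equal weight for every cell. The ferritin FRIS_LYMST (NVE15943), which stores iron, stood at 4550 CPM in the tentacle and 15498 CPM in the pharynx (ratio 0.294, 0.287 to 0.301), whereas its namesake NVE25570 stood at 7231 CPM in the tentacle and 6022 CPM in the pharynx. The cysteine protease CATL_DROME (NVE8852), cathepsin L, had 77 UMIs in the tentacle and 621 in the pharynx, a ratio of 0.185 that became 0.456 over all deposited barcodes. Genes of the stress response took 1.42% of tentacle and 2.55% of pharynx UMIs. Of 28 compared, 2 were tentacle-high and 1 pharynx-high, against 10.9% and 13.1% over all genes. The heat shock protein HS71L_BOVIN (NVE15435) stood at 1261 CPM in the tentacle and 3645 CPM in the pharynx, and the immediate early gene FOSX_MSVFR (NVE23145) at 3084 CPM in the tentacle and 6600 CPM in the pharynx. Tissue dissociation is known to raise such genes, and its part in these levels was not tested.

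In the housekeeping lists no gene passed the fold in either direction, among 87 ribosomal protein genes and 55 respiratory chain genes, but each list leaned to 1 side. The ribosomal list took 29.6% of tentacle and 32.1% of pharynx UMIs, and 69 of its 87 genes had ratios below 1. The respiratory chain list took 1.27% of tentacle and 1.1% of pharynx UMIs, with 47 of 55 ratios above 1 and a median log2 ratio of 0.44. RL32_RAT (NVE14265) had 5624 CPM in the tentacle and 5619 CPM in the pharynx, and the translation elongation factor EF1A3_XENLA (NVE12051) had 11323 CPM in the tentacle and 11918 CPM in the pharynx. Over all genes compared, 10.9% were tentacle-high and 13.1% pharynx-high. Of the solute carriers 3 of 29 were tentacle-high and none pharynx-high, and of the cytochrome P450 genes 1 of 9 was tentacle-high and 2 pharynx-high. Their summed shares had ratios of 0.98 and 0.964, with ranges of 0.85 to 1.03 and 0.77 to 1.05 over the alternative settings. CP3A4_HUMAN is the name of the consecutive models NVE11461, with 1 UMI in the tentacle and 65 in the pharynx, while NVE11462, with 183 CPM in the tentacle and 187 CPM in the pharynx.

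Some names stood on both sides. The tentacle-high genes whose names have a species code carried 219 distinct protein codes, and the pharynx-high ones 256. How far a split follows from the number of models with a name was not tested. Of the names with a species code, 22 protein codes were carried by at least 1 tentacle-high and at least 1 pharynx-high gene, covering 33 of 256 such tentacle-high genes (12.9%) and 35 of 298 pharynx-high genes (11.7%). The names below are examples of these 22 codes, which were selected for being called on both sides. Over all genes compared, 10.9% were tentacle-high and 13.1% pharynx-high. Hemicentin (HMCN1) had 6 tentacle-high and 3 pharynx-high models among 14 compared. GAPR1, named after a CAP-domain protein, had 5 tentacle-high and 4 pharynx-high models among 14 compared. Within the CAP-domain names, GAPR1_HUMAN NVE17239 had 241 UMIs in the tentacle and 0 in the pharynx, while GAPR1_HUMAN NVE18451 had 0 in the tentacle and 627 in the pharynx. SVEP1, named after a large adhesive matrix protein, had 1 tentacle-high and 3 pharynx-high models among 4 compared. For SVEP1_HUMAN, NVE20065 had 453 UMIs in the tentacle and 5 in the pharynx, while NVE11282 had 1 in the tentacle and 156 in the pharynx.

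Within clusters that held at least 50 cells of each library, the libraries could be compared for similar cells. Here a gene needed at least 30 UMIs in the higher library and a ratio of at least 4. Tentacle cells held more UMIs than pharynx cells in each: 204506 against 71334 in cluster 4. The UMIs were 102954 against 63593 in cluster 7 and 129307 against 91382 in cluster 8. The minimum of 30 UMIs is thus a lower CPM in the tentacle, so the numbers called each way cannot be compared. Cluster 4, led by CSL3_ONCKE, held 206 tentacle and 59 pharynx cells, and 41 of its 732 compared genes (5.6%) were tentacle-high and 7 (0.956%) pharynx-high. GP2_CANFA (NVE8266) had 13 UMIs or 63.6 CPM in tentacle cells and 219 UMIs or 3070 CPM in pharynx cells of that cluster (48.3-fold lower in the tentacle, 27.7 to 92.2), and NvWnt1 had 0 UMIs in tentacle cells and 46 in pharynx cells. On the tentacle side, the calponin CNN2_BOVIN (NVE7521) had 96 UMIs in tentacle cells and 4 in pharynx cells, and SCW1_SCHPO (NVE19), named after a yeast RNA-binding protein, had 47 in tentacle cells and 1 in pharynx cells. DERM_BIOGL (NVE7833), with 406 tentacle and 0 pharynx UMIs in cluster 4 and 0 tentacle and 288 pharynx UMIs in cluster 7, had 403 of its tentacle UMIs in 1 cell and 288 of its pharynx UMIs in 1 cell, so neither value describes a cluster.

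Cluster 7, among whose leading genes was the neuropeptide precursor Rfamide (NVE7549), held 114 tentacle and 52 pharynx cells. Of 544 compared genes 51 (9.38%) were tentacle-high and 25 (4.6%) pharynx-high. NvFoxA had 0 UMIs in tentacle cells and 53 UMIs or 833 CPM in pharynx cells of this cluster (at least 28.6-fold lower in the tentacle). RGMB_HUMAN (NVE15735), named after a repulsive guidance molecule that acts as a co-receptor for bone morphogenetic proteins, had 54 UMIs in tentacle cells and 2 in pharynx cells. Over the whole tentacle library the RGMB_HUMAN UMIs came from 186 cells, with at most 8 in any cell. Its spread within cluster 7 was not counted.

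Cluster 8, with 5 muscle genes among its 30 leading genes, was the only muscle-like cluster and held 96 tentacle and 50 pharynx cells. Of 509 compared genes 53 (10.4%) were tentacle-high and 26 (5.11%) pharynx-high. RGMB_HUMAN was tentacle-high again, with 134 UMIs or 1036 CPM in tentacle cells and 3 UMIs or 32.8 CPM in pharynx cells. CSEN_HUMAN (NVE20107), named after a calcium-binding neuronal sensor, had 78 UMIs in tentacle cells and 2 in pharynx cells, and the basic helix-loop-helix factor Hl1/HES-1 (NVE8464) had 91 in tentacle cells and 0 in pharynx cells. The last of these was not called over all cells, where its levels were 77 CPM in the tentacle and 39.9 CPM in the pharynx. Contractile genes differed by model. MYL9_MOUSE (NVE20160) had 32775 CPM in tentacle cells and 25486 CPM in pharynx cells of the cluster, and MLC2_DROME NVE3912 had 15305 CPM in tentacle cells and 19227 CPM in pharynx cells. In contrast, MLC2_DROME NVE12983 had 1 UMI in tentacle cells and 32 in pharynx cells, and MP20_DROME NVE7493 had 2 in tentacle cells and 50 in pharynx cells. Both genes were also pharynx-high over all cells, and cluster 2 held 54.8% and 67.6% of their pharynx UMIs. The part of free RNA in their cluster 8 values was not tested. The actins ACTC_BIOAL (NVE1939) and ACTB_XENBO (NVE2870) stood at 820 and 131 CPM in tentacle cells, against 26898 and 4859 CPM in pharynx cells. Free RNA of the pharynx library, in which these actins were found in every cluster of at least 50 cells, moves with this difference, and its part in it was not tested.

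**Figure D3:**
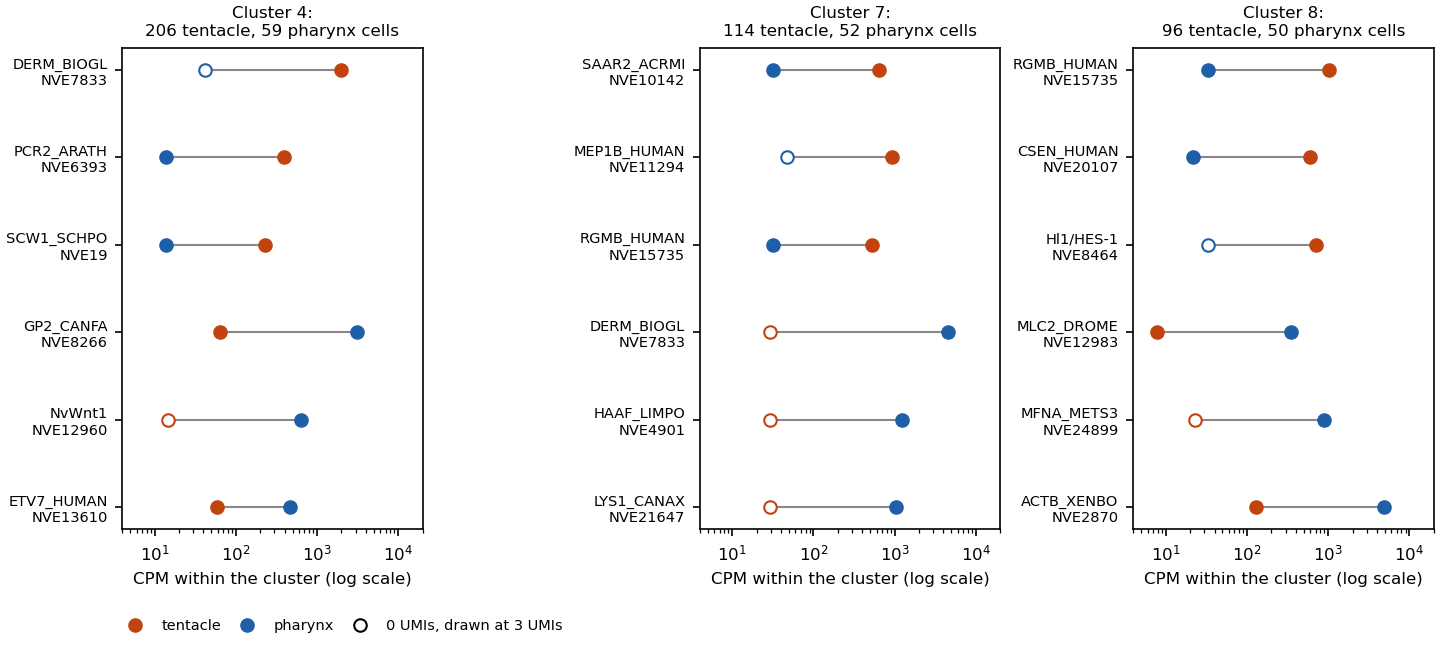
Level of genes in tentacle cells (orange) and pharynx cells (blue) of clusters 4, 7 and 8, in CPM within the cluster on a log scale, for the 3 named genes at the extreme of each direction. Some levels come almost wholly from 1 cell and do not describe a cluster. These are DERM_BIOGL in clusters 4 and 7, and in cluster 7 MEP1B_HUMAN (95 tentacle UMIs in 1 cell) and HAAF_LIMPO (77 of 78 pharynx UMIs). LYS1_CANAX had 66 pharynx UMIs in cluster 7, and its highest count in a pharynx cell was 66. Open points mark 0 UMIs, drawn at 3 UMIs; in cluster 8 RGMB_HUMAN stands at 1036 CPM in tentacle cells and 32.8 CPM in pharynx cells.

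Clusters 12, 13, 17 and 18, made up mostly of tentacle cells, held the peaks of most tentacle-high genes, when peaks were sought among clusters with at least 50 cells of the gene's higher library. Of the 476 tentacle-high genes, 92 (19.3%) had their highest level in cluster 17, 90 (18.9%) in cluster 12, 82 (17.2%) in cluster 13 and 79 (16.6%) in cluster 18. Of the 570 pharynx-high genes, 121 (21.2%) peaked in cluster 2, 105 (18.4%) in cluster 6 and 82 (14.4%) in cluster 0. The share of all compared genes that peak in each cluster was not counted. These counts therefore do not single out a cluster. Smaller clusters were left out of this count, although some genes sit there: cluster 16 held 92.5% of the pharynx UMIs of NVE11519. Tentacle cells of clusters 12 and 18 had medians of 2513.5 and 4090 UMIs, above the library's 703, so they weigh more in a sum of UMIs than in a count of cells. Cluster sizes were not compared between the libraries, since the genes that differ also define the clusters.

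Barcodes with under 300 UMIs, 5701 in the tentacle and 4196 in the pharynx, held 793613 tentacle UMIs and 744167 pharynx UMIs and show what lies outside the cells counted. In them, 221 of 1718 compared genes (12.9%) were tentacle-high and 124 (7.22%) pharynx-high. Lysosomal and nutrient storage genes took 7.68% of tentacle and 4.66% of pharynx UMIs there, the reverse of their order among cells. The ferritin FRIS_LYMST (NVE14362) stood at 16478 CPM in small tentacle barcodes and 10910 CPM in small pharynx barcodes, against 2120 CPM in tentacle and 7989 CPM in pharynx cells. The actin ACTC_BIOAL stood at 9651 CPM in small tentacle and 15077 CPM in small pharynx barcodes, and over all deposited barcodes its ratio was 0.28, which is not called. The stinging capsule list kept its direction, with 0.26% of tentacle and 0.0453% of pharynx UMIs. Ncol3 stood at 2558 CPM in small tentacle and 418 CPM in small pharynx barcodes.

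**Figure D4:**
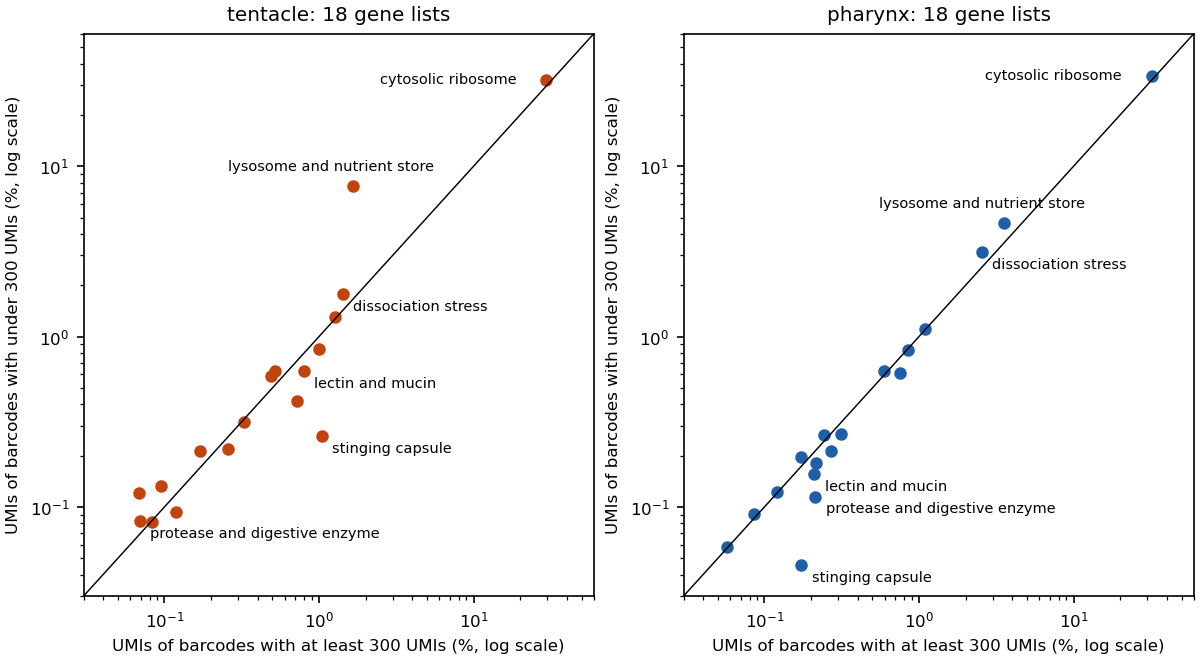
Share of a library's UMIs taken by each of 18 gene lists in barcodes with at least 300 UMIs (horizontal axis) and under 300 UMIs (vertical axis), in percent on log scales, for the tentacle (left, orange) and the pharynx (right, blue). The line marks equal shares; in the tentacle the lysosome and nutrient store list lies far above it (7.68% against 1.67% in cells) and the stinging capsule list below it (0.26% against 1.04%).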

How the data were processed

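Single-cell RNA was counted in 1 tentacle and 1 pharynx library. UMI counts were deposited by the authors as raw whole numbers for each gene and barcode. Cell Ranger 2.1.0 is named in the submitters' processing notes. Genome build, annotation and barcode filter were not given in the sources used here. From the deposited counts, UMIs of barcodes with at least 300 UMIs were summed per gene and library and divided by the library's sum (CPM). A gene with at least 50 UMIs in the higher library and a CPM ratio of at least 4 was called, with 0 UMIs set to 3 per library. No test was possible with 1 library a group, so ratios carry exact 95% Poisson and shares exact Clopper-Pearson intervals, for counting error only. A ratio with 0 UMIs in a library carries no interval and is given as "at least" its value at the floor of 3 UMIs.

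Cells of both libraries were clustered together with scanpy 1.11.5 (counts scaled to 10000 per cell, 2000 variable genes, 30 components, 15 neighbours, Leiden resolution 1) into 24 clusters. Shares of cells used cells thinned to 300 UMIs. No doublet caller was run, and leaving out the 1% of barcodes with the most UMIs served as an alternative. The call rule was tested on simulated counts.

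The gene lists and the comparison were chosen with earlier results of these data known. Name patterns were tidied once names were seen, and a few wrong matches were corrected after values were seen. Named were, each way, 14 genes by ratio among those with a name, the 10 with the most UMIs, 2 unnamed models by each measure, per list the 4 members with the most UMIs and up to 4 called ones each way, and the 3 named genes with the largest ratio within a cluster. CNN2_BOVIN, NvFoxA, MP20_DROME and ACTC_BIOAL within clusters, and the pairs of models that share a name, were picked outside this rule after their values were seen. Only part of the genes so chosen is described. The gene models could not be matched to the reference table, so no positions or sequences are given.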

Additional observations from a re-analysis of the deposited data

Results flagged for a closer look

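Barcodes with under 300 UMIs were not used in the comparison of cells, and genes differed between the libraries in them too. Of the 476 tentacle-high genes, 169 had at least 50 UMIs in either library among these barcodes, and 158 of those (93.5%) were tentacle-high there too. Of the 570 pharynx-high genes, 189 could be compared there and 114 (60.3%) were pharynx-high. Over all genes compared in these barcodes, 12.9% were tentacle-high and 7.22% pharynx-high. Such barcodes can hold small cells, broken cells or free RNA, which cannot be told apart here.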

How the results depend on the processing

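The counts of called genes moved with the thresholds that define a call. A minimum of 20 UMIs gave 746 tentacle-high and 1038 pharynx-high genes, and no minimum gave 1384 tentacle-high and 1547 pharynx-high genes. A minimum of 100 UMIs gave 318 tentacle-high and 341 pharynx-high genes. A ratio of at least 2 gave 979 tentacle-high and 1137 pharynx-high genes, and a ratio of at least 8 gave 249 tentacle-high and 352 pharynx-high. Leaving out the 10 cells with the most UMIs of each gene, an alternative chosen after seeing the data, gave 233 tentacle-high and 307 pharynx-high. The main counts were 476 tentacle-high and 570 pharynx-high. The 8 other ways of choosing or weighing barcodes and of scaling kept each count within 1.5 times of these. Scaling by the median gene ratio changed the median log2 ratio over all genes to -0.22 from -0.05. With equal weight for every cell the share ratio of the extracellular matrix list became 1.01 and the median of the muscle list 0.40. Summed over shared clusters, 145 tentacle-high and 58 pharynx-high calls became 241 tentacle-high and 156 pharynx-high at a Leiden resolution of 0.5, where the shared clusters are coarser. The libraries had unequal UMIs within these clusters, so the numbers each way cannot be compared. Of 128 called genes with values in the text or tables, 98 were called under all 8 of these settings, 30 were lost under at least 1 and none changed direction; 15 were lost with all deposited barcodes. Of the 30, 9 kept a ratio past 4-fold wherever they were lost and missed only the minimum of 50 UMIs, such as KCNA7_HUMAN at 62.2 under the stricter UMI minimum for cells. The other 21 were under 4-fold in at least 1 setting. The cause of the other changes was not tested. No paired analysis was possible because each tissue has 1 library. Depth limits genes near 50 UMIs, and the floor of 3 UMIs, used where the tentacle had 0, equals 1.63 CPM.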
